A study of Mus musculus with 23 samples.

Results

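AstroTIPeR cells are labelled as mouse astrocytes into which poly-A RNA of cardiomyocytes had been transfected with a lipid reagent, and here their expression is set against that of untransfected mouse cardiomyocytes. The cells were chosen by their labelled titles, which gave 6 astroTIPeR cells and 4 cardiomyocytes, 10 of the 23 single cells of the series. The other cells were 2 mock-transfected astrocytes (astroControl), 3 untransfected fibroblasts, 3 fibroblasts given fibroblast RNA (fibroControl) and 5 fibroblasts given cardiomyocyte RNA (fibroTIPeR). All cells had been cultured in DMEM with fetal bovine serum, drawn one by one into a glass pipette, and their RNA amplified and hybridized to 1 Affymetrix mouse array each. The labels give no strain, genotype, age or time after transfection, and name no culture or animal for any cell. The p-values therefore describe no more than how far these single cells differ from each other, and part of that may be technical.

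Transcriptome transfer asks whether the mRNA population of one cell type can push another cell type towards its own expression state. A cardiomyocyte is defined by the sarcomere, an array of myosin, actin, troponin and their anchoring proteins that shortens when calcium leaves the sarcoplasmic reticulum, and it burns mainly fatty acids. An astrocyte is a glial cell with an intermediate filament network, glutamate uptake and a non-muscle actin cytoskeleton. The comparison addresses which heart muscle genes differed between the recipients and the cell type that donated the RNA.

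Levels are quantile-normalized log2 values, with 1 probe set per gene, for 18193 genes. The median level was 5.71 and the 90th percentile 10.94, so levels near or below the median may be background signal, and no detection calls were used. The deposited columns fell in separate ranges, with array medians of 4.28 to 4.56 on the 8 astroTIPeR and astroControl arrays and 5.05 to 5.58 on the 15 fibroblast and cardiomyocyte arrays. Array set, cell type and transfection cannot be told apart in astroTIPeR against cardiomyocyte. The mean level of the 18S ribosomal RNA control probe sets was 8.73 ± 0.68 (SD, n = 6) in astroTIPeR cells, 7.48 ± 0.59 (n = 4) in cardiomyocytes and 8.63 ± 0.65 (n = 2) in astroControl cells. Signal of the B2 repeat, a short interspersed element, was 9.47 ± 1.72, 7.13 ± 0.53 and 9.38 ± 1.15 in the same order. The 3′ minus 5′ difference of the Gapdh control probe sets, a sign of RNA quality, was 4.03 ± 0.80, 4.89 ± 1.203 and 2.07 ± 0.79. The part of these differences in the results was not tested beyond models that included the 18S signal or the Gapdh difference.

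The labelled cell types were checked against their defining markers. Of 9 cardiomyocyte markers, 8 were lower in astroTIPeR cells than in cardiomyocytes and none was higher, while Pln did not pass. Of 3 further cardiac genes kept in view, Nppa (-0.25), Nkx2-5 (-1.06) and Gata4 (0.77), none passed. Of 8 astrocyte markers none passed in either direction, on any of their 29 probe sets. Gfap, the intermediate filament protein of astrocytes, had a mean of 4.69 ± 0.96 in astroTIPeR cells, 5.32 in astroControl cells and 6.13 ± 1.26 in cardiomyocytes (adjusted p = 0.31), below the median level of all genes in astroTIPeR and astroControl cells. Slc1a3, a glutamate transporter, had a mean of 10.49 ± 0.39 in astroTIPeR cells, 10.79 ± 0.17 in cardiomyocytes and 10.33 ± 0.99 in fibroblasts. Aldh1l1, a folate enzyme used as an astrocyte marker, was at 4.16 ± 0.84 and 4.63 ± 0.47 in astroTIPeR cells and cardiomyocytes. The data thus give the cardiomyocytes their defining markers but do not set the labelled astrocytes apart by theirs, so the cells are called astroTIPeR and astroControl here.

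Of the 18193 genes, 387 (2.13%) passed limma's test at a Benjamini-Hochberg adjusted p under 0.05. Of these, 253 (1.39% of all genes) were higher in astroTIPeR cells and 134 (0.737%) were lower. Among the genes that passed, the largest falls were in genes of the contracting heart: the troponin Tnni3, the myosin chains Myl2 and Myh6, the lipid droplet protein Plin5 and the calcium pump Atp2a2. Many genes that passed lay below the median level in one of the groups: 178 of the 253 higher genes had a cardiomyocyte mean below it, and 109 of the 134 lower genes an astroTIPeR mean below it. The groups did not overlap in 217 of the higher and 116 of the lower genes. Over all genes, 3.84% had every astroTIPeR cell above every cardiomyocyte and 3.77% had every one below. The direction count depended on the scaling: 461 genes were higher and 3537 lower with values as deposited, where the median of all genes shifted by -0.80, and 2234 were higher and 381 lower with each array centred on its median, where it shifted by 0.33. Among the 387 genes, 206 had more than 1 probe set. In 12 of the 206, a further probe set passed in the same direction when every probe set was tested. Averaging the probe sets of a gene in place of taking the brightest ended the calls of 18 genes named here, namely Atp2a2, Ryr2, Tnnt2, Mb, Ndufa5, Actn1, Lasp1, Myh9, Timp2, Cp, Lyz2, Rpl7, Adar, Carnmt1, Dnajc21, Tlcd4, Cntn2 and Ercc1. Without cardiomyocyte 2, 217 genes passed, 142 higher and 75 lower, and lower genes numbered 75 without astroTIPeR 3, 75 without astroTIPeR 4 and 76 without cardiomyocyte 4.

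**Figure D1:**
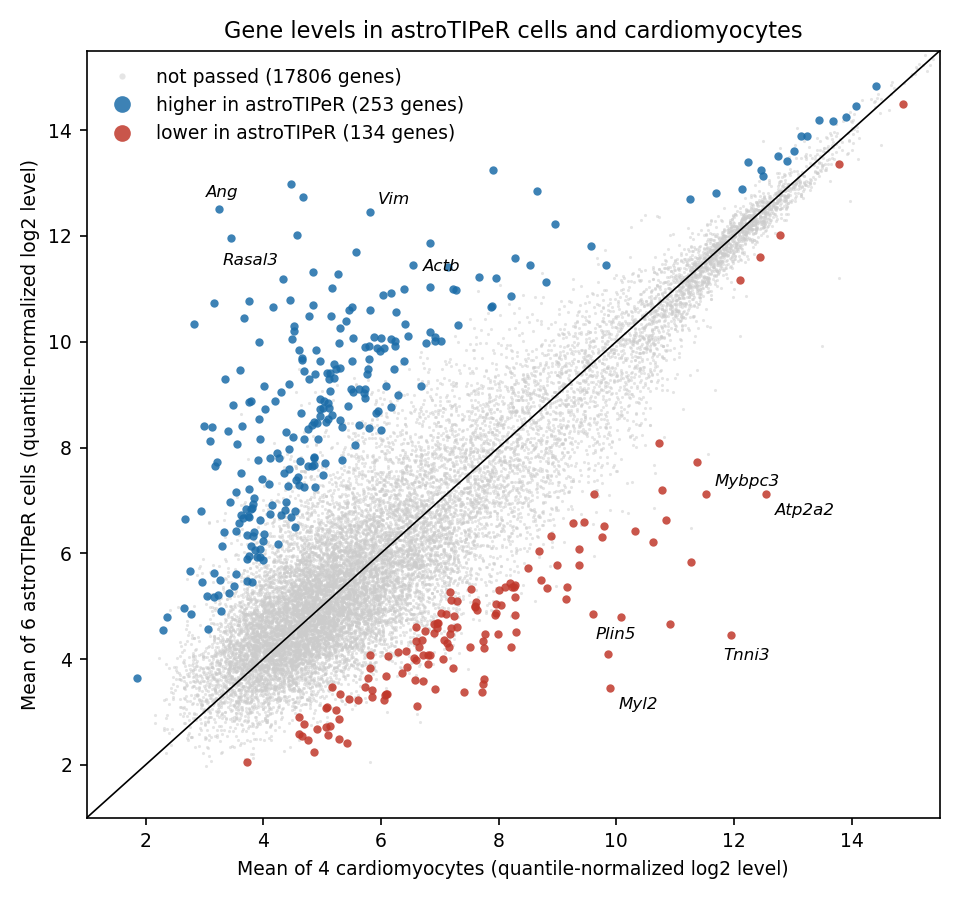
Mean quantile-normalized log2 level of each gene in 4 cardiomyocytes (x axis) and 6 astroTIPeR cells (y axis), with the line of equal levels. Blue points are the 253 genes that passed as higher in astroTIPeR cells, red points the 134 that passed as lower, and grey points the genes that did not pass; Tnni3, Myl2, Plin5 and Atp2a2 lie far below the line.

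Sarcomere genes had the most lower members of the 22 lists. Of 32 measured, 11 were lower in astroTIPeR cells, where 0.737% of all genes were, and none was higher. Their median difference was -1.26 on the log2 scale, against -0.00713 over all genes, and 28 of the 32 differences were negative. The mean level over the list ran from 5.49 to 5.82 in the 6 astroTIPeR cells, from 7.32 to 8.22 in the 4 cardiomyocytes, from 5.86 to 6.22 in the 3 fibroblasts, and was 5.51 and 6.06 in the 2 astroControl cells. Cardiomyocytes thus stood above every other cell of these groups, and astroTIPeR cells lay at the level of the mock-transfected ones.

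Tnni3, the inhibitory subunit of cardiac troponin, was measured at 10.54, 12.25, 12.81 and 12.24 in cardiomyocytes 1 to 4, and astroTIPeR cells ran from 4.004 over a median of 4.45 to 4.78. The astroControl cells had 4.16 and 2.72, so no astroTIPeR or astroControl cell came near any cardiomyocyte. The difference was -7.498 (95% interval -8.93 to -6.07, adjusted p = 2.28e-07). Myl2, the regulatory light chain of ventricular myosin, was at 8.60, 10.12, 10.50 and 10.36 in cardiomyocytes and between 1.996 and 5.11 (median 3.26) in astroTIPeR cells. It fell by 6.44 (interval -7.62 to -5.25, adjusted p = 1.54e-07), again with a wide gap between the groups. Myh6, the alpha myosin heavy chain that moves along actin, was at 9.90, 11.55, 11.76 and 10.44 in cardiomyocytes against 3.30 to 5.97 (median 4.71) in astroTIPeR cells. Its difference was -6.25 (interval -7.53 to -4.97, adjusted p = 7.44e-07). This rested on 1 of its 2 probe sets, and the other, at -1.04, did not pass.

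The other lower members under the naming rule were Myoz2, Mybpc3, Actc1 and Tnnt2. Myoz2, which ties calcineurin to the Z disc, was at 8.61, 10.09, 11.03 and 10.58 in cardiomyocytes and between 3.21 and 6.51 (median 4.56) in astroTIPeR cells. The groups did not overlap (difference -5.29, adjusted p = 0.000387), although astroControl 2 reached 8.39 where astroControl 1 had 3.51. Mybpc3, which binds myosin along the thick filament, was at 10.63, 11.74, 11.97 and 11.77 in cardiomyocytes and between 5.70 and 8.26 (median 7.30) in astroTIPeR cells (difference -4.41, adjusted p = 0.00324). Its mean in astroTIPeR cells, 7.12 ± 0.97, was above the median of all genes, as was that of the fibroblasts (6.59 ± 1.55, n = 3). Actc1, the actin of the cardiac thin filament, was at 8.40, 9.02, 9.68 and 9.51 in cardiomyocytes and between 3.90 and 6.30 (median 5.15) in astroTIPeR cells (difference -4.01, adjusted p = 0.00165). Tnnt2, the troponin that attaches to tropomyosin, differed by -3.52 (7.99 ± 0.42 in cardiomyocytes, 4.48 ± 0.69 in astroTIPeR cells, adjusted p = 0.00722). That gene was not particular to heart cells on this probe set, since fibroblasts had 8.46 ± 2.53 (n = 3). Its other probe sets did not pass, with differences of -1.32 and 1.16.

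The other 4 lower members fall outside the naming rule and were singled out after their values were seen. Nebl, a nebulin relative at the Z disc, differed by -3.47, the stretch sensor component Csrp3 by -3.29, the actin nucleator Lmod2 by -3.29, and Smpx, a small muscle protein, by -2.69. Smpx was the only one of the 11 whose groups overlapped. The 21 members that did not pass included genes with high and nearly equal levels in both groups: Myl4, the atrial light chain, was at 11.22 ± 0.13 in astroTIPeR cells and 11.35 ± 0.08 in cardiomyocytes, and 10.94 in fibroblasts. They also included the anchoring genes Ldb3 (difference 0.89), Myom2 (0.56), Tcap (0.40) and Myom1 (-0.21), and Ttn (6.36 ± 1.08 in cardiomyocytes) and Actn2 (3.78 ± 0.97), whose cardiomyocyte levels were themselves low on these probe sets. With any 1 cell left out, 9 to 11 members passed.

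**Figure D2:**
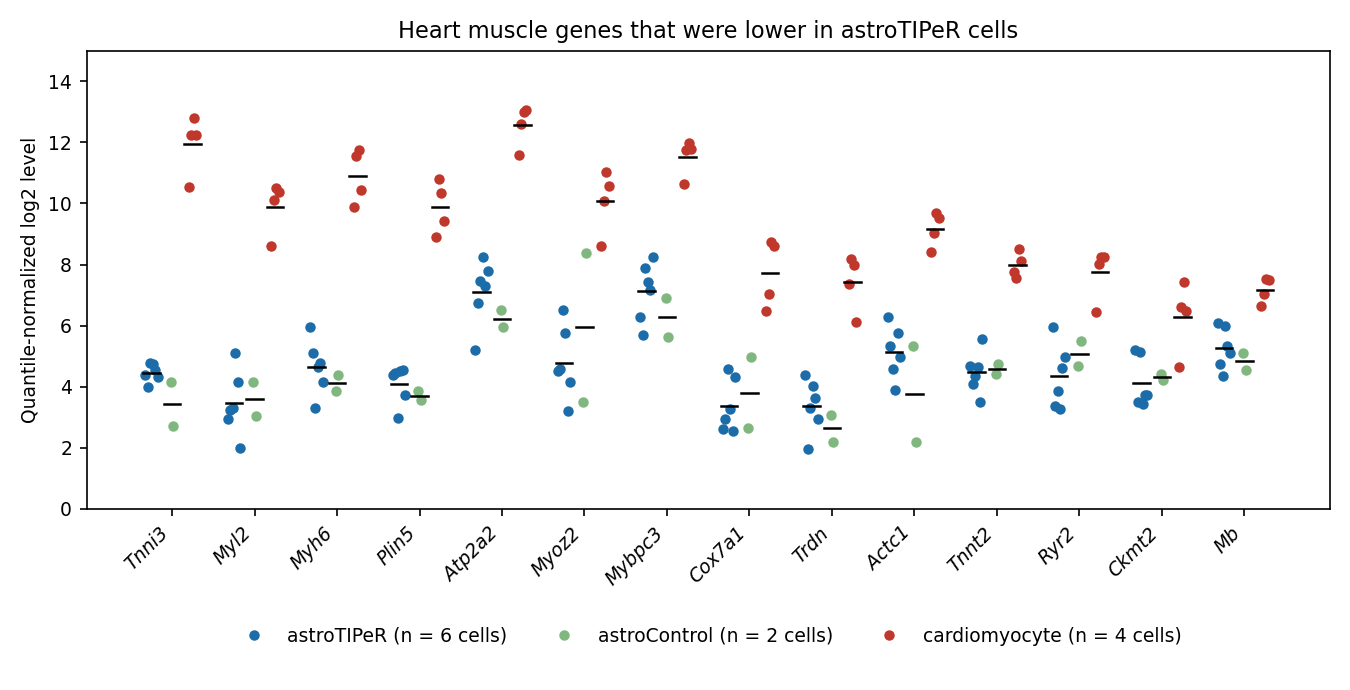
Quantile-normalized log2 level (y axis) of 14 heart muscle genes that passed as lower in astroTIPeR cells, with 1 point per cell and a black line at each group mean, for 6 astroTIPeR, 2 astroControl and 4 cardiomyocyte cells. Cardiomyocyte points lie above all astroTIPeR points for each gene except Ckmt2, where cardiomyocyte 1 (4.65) lies among them.

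Because these genes differed together, the DNA just upstream of them was searched for the core promoter word TATAAA and for letters that cardiac factors are known to bind. These were the CArG box of serum response factor, the MEF2 box and the GATA word AGATAA, also with T as its first letter or G as its last. The 250 bases before each start were read on both strands from RefSeq promoters (GRCm38.p6), which hold entries for all 11 lower sarcomere genes in 17 promoters. A MEF2 match was in 2 of the 17, a CArG match in 2, a GATA match in 10 and TATAAA in 1. Of all 32851 promoters, 2.92%, 1.47%, 26.5% and 12.4% held a match in the same order. For the higher cytoskeletal genes described further on, 7 of 8 had entries, in 8 promoters, with 0 MEF2, 1 CArG, 1 GATA and 1 TATAAA matches. A match is a description of letters, not a site. The 3 lower sarcomere genes with a single listed promoter and a MEF2 or CArG match are shown with that match in capitals, 5′ to 3′ on the strand of the gene. Mybpc3 is at chr2:91117894-91118143 (plus strand), Myoz2 at chr3:123034988-123035237 (minus) and Actc1 at chr2:114052876-114053125 (minus).
Mybpc3, MEF2: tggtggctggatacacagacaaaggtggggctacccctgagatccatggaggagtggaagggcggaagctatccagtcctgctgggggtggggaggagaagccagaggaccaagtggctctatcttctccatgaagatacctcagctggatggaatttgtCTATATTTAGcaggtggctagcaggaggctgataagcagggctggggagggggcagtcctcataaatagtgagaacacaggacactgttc
Myoz2, MEF2: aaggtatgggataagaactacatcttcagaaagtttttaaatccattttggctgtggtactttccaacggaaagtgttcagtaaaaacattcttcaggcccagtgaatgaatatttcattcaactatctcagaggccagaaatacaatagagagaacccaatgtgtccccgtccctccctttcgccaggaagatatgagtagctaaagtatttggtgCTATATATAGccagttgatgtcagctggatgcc
Actc1, CArG: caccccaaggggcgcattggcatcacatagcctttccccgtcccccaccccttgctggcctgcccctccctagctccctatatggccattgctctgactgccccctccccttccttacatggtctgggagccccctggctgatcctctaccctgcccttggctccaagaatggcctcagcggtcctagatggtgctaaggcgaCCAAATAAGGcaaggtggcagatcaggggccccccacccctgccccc
The MEF2 match of Myoz2 lay 33 to 24 bases before the start and that of Mybpc3 90 to 81 bases before it, and the CArG match of Actc1 lay 47 to 38 bases before it.

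Of 26 calcium handling and excitability genes, 3 were lower, where 0.737% of all genes were, and none was higher. The list median was -0.46, with 17 negative and 9 positive differences. Atp2a2, the pump that returns calcium to the sarcoplasmic reticulum, was among the highest genes in cardiomyocytes, at 11.58, 12.60, 12.98 and 13.05, and ran from 5.20 to 8.23 (median 7.38) in astroTIPeR cells. The groups were far apart (difference -5.44, interval -7.45 to -3.43, adjusted p = 0.00182). This rested on 1 of its 6 probe sets, the brightest, and none of the others passed. Ryr2, the calcium release channel, was at 6.44, 8.02, 8.26 and 8.26 in cardiomyocytes and between 3.26 and 5.97 (median 4.25) in astroTIPeR cells (difference -3.40, adjusted p = 0.00563). The other probe set of this channel, at -0.66, did not pass. Trdn, which couples that channel to its calcium store, was at 7.35, 8.20, 7.98 and 6.13 against 1.95 to 4.37 (median 3.46; difference -4.04, adjusted p = 0.00181), with same-direction passes on 3 of its 6 probe sets. Fibroblasts had 8.31 ± 1.99 (n = 3) for Trdn, so a high level was not limited to cardiomyocytes. Pln, the brake on the calcium pump, had -2.02 (adjusted p = 0.24) on its brightest probe set, where astroTIPeR 1 and astroTIPeR 2 had 9.08 and 9.65, within the cardiomyocyte range of 8.06 to 10.56. Its other 2 probe sets passed as lower, by -2.23 and -2.87.

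Fuel and oxygen genes of muscle held 4 lower members in 2 lists, where 0.737% of all genes were lower. Plin5, which coats lipid droplets beside mitochondria, was the only one of 26 fatty acid genes to pass: it was at 8.89, 10.80, 10.35 and 9.43 in cardiomyocytes and between 2.99 and 4.53 (median 4.42) in astroTIPeR cells. It had the smallest adjusted p of the named genes (difference -5.77, interval -6.76 to -4.77, adjusted p = 7.77e-08), and astroControl cells had 3.85 and 3.55. Its other probe set had the opposite sign and did not pass. Of 12 oxygen, creatine and hormone genes, 3 were lower and none higher, with 11 of 12 differences negative. Cox7a1, the heart and muscle form of a cytochrome oxidase subunit, was at 6.50, 7.05, 8.74 and 8.62 in cardiomyocytes and between 2.55 and 4.58 (median 3.10) in astroTIPeR cells (difference -4.34, adjusted p = 3.14e-05). Mb, myoglobin, which stores oxygen, was at 6.63, 7.05, 7.52 and 7.49 against 4.37 to 6.09 (median 5.21; difference -1.90, adjusted p = 0.0175), and that call ended without cardiomyocyte 3 or without cardiomyocyte 4 (adjusted p 0.0564 to 0.0621). Ckmt2, the mitochondrial creatine kinase of muscle, differed by -2.17 (adjusted p = 0.0298), a call that held without astroTIPeR 1, astroTIPeR 3 or cardiomyocyte 1 and ended without any of the other 7 cells (adjusted p 0.059 to 0.119).

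Of 72 oxidative phosphorylation genes 1 was lower and 1 higher, a share near the 2.13% of all genes that passed, and the list median was -0.19. Wide intervals, such as -4.05 to 1.85 for the complex I subunit Ndufc2, do not show that levels were alike. Ndufa5, a complex I subunit, had 10.32 ± 0.96 in cardiomyocytes and 6.43 ± 1.80 in astroTIPeR cells (difference -3.89, adjusted p = 0.0324), and held only without astroTIPeR 5, astroTIPeR 6 or cardiomyocyte 1 (adjusted p 0.0508 to 0.103 without each of the others). Atp5e, an ATP synthase subunit, was higher by 1.98 (adjusted p = 0.044), but ended with values as deposited and without any cell but astroTIPeR 6 (adjusted p 0.052 to 0.156). None of 16 citrate cycle and pyruvate genes passed, although 13 had negative differences. Dlat, part of pyruvate dehydrogenase, had the smallest p there (difference -3.16, adjusted p = 0.0916).

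No cardiac transcription factor passed among 18, and the median of the list was 0.08. Nkx2-5, a homeobox factor of heart development, was at 9.99, 10.70, 10.49 and 10.69 in cardiomyocytes and spread from 6.401 to 10.86 (median 9.99) in astroTIPeR cells, with overlap. The interval of its difference ran from -2.72 to 0.61, which does not show that the levels were alike. Gata4, a zinc finger factor of the heart, had 6.91 ± 0.74 and 6.14 ± 0.82 in astroTIPeR cells and cardiomyocytes (interval -0.82 to 2.36). Myocd, the cofactor of serum response factor, and Tbx5, a T-box factor, had the smallest p-values: Myocd was between 4.15 and 5.49 against 5.83 to 6.49 (difference -1.44, adjusted p = 0.209), and Tbx5 between 6.20 and 8.82 against 9.18 to 10.25 (difference -1.71, adjusted p = 0.226). Neither gene's groups overlapped, but neither passed. Nppa, the atrial natriuretic hormone of fetal and stressed heart cells, was low in both, at 4.14 ± 0.47 and 4.39 ± 1.29.

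Muscle and general forms of the same protein were compared in 20 pairs, of which 17 had both members measured. The muscle form was lower in 4 of 18 measured (Actc1, Cox7a1, Pfkm and Ckmt2; 0.737% of all genes were lower) and higher in none, and the general form was higher in 5 of 18 (Eef1a1, Actb, Tpm3, Pgam1 and Actn1, against 1.39% of all genes) and lower in none. Both members passed in 1 pair, the actins, and the signs were opposed in this way in 6 of 17. Pfkm, muscle phosphofructokinase, was at 8.86, 9.60, 9.43 and 9.94 in cardiomyocytes and between 5.65 and 7.97 (median 6.53) in astroTIPeR cells (difference -2.87, adjusted p = 0.0165). Its call ended without cardiomyocyte 2 or cardiomyocyte 4 (adjusted p 0.0534 to 0.064). Pgam1, the phosphoglycerate mutase of most tissues, was at 3.13, 4.28, 3.87 and 4.85 against 6.77 to 9.88 (median 8.77; difference 4.70, adjusted p = 0.0212). That call ended without astroTIPeR 4 or without cardiomyocyte 1, 2 or 3 (adjusted p 0.0518 to 0.07). Eef1a1, the general elongation factor, was higher by 4.91 (8.30 ± 0.94 against 3.40 ± 1.22, adjusted p = 0.00623), while its muscle and nerve counterpart Eef1a2 differed by -0.50 (adjusted p = 0.801).

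The non-muscle cytoskeleton was the list with most higher genes. Of 29 measured, 8 were higher, where 1.39% of all genes were, and none was lower, with a list median of 1.498. Actb, cytoplasmic actin, was at 6.08, 5.41, 6.14 and 8.55 in cardiomyocytes and ran from 8.31 to 12.36 (median 12.23) in astroTIPeR cells. Only astroTIPeR 1 and cardiomyocyte 4 met in the middle, and the difference was 4.90 (interval 3.20 to 6.61, adjusted p = 0.00117). Tpm3, a tropomyosin of non-muscle cells, was at 4.95, 4.33, 5.20 and 8.76 against 8.36 to 11.52 (median 10.81; difference 4.79, adjusted p = 0.000998), with overlap through cardiomyocyte 4 alone. Actn1, which crosslinks actin at adhesions, was at 3.87, 6.47, 5.85 and 4.97 against 7.34 to 11.61 (median 10.60), with no overlap (difference 4.68, adjusted p = 0.00222). Lasp1, an actin-binding adaptor, was at 3.40, 3.91, 1.63 and 8.82 against 8.49 to 9.97 (median 9.16; difference 4.76, adjusted p = 0.0099), and ended without cardiomyocyte 3 (adjusted p = 0.0569). Of its 9 probe sets, 4 had the opposite sign. Myh9, a non-muscle myosin heavy chain, differed by 4.12 (adjusted p = 0.0443), with 3.40, 5.77, 4.01 and 9.98 in cardiomyocytes. It held only without astroTIPeR 1 or cardiomyocyte 4 (adjusted p 0.0794 to 0.159 without each of the others).

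The 3 remaining higher members, singled out after their values were seen, were the dynein light chain Dynll1 (4.02), the Arp2/3 subunit Arpc2 (3.47) and gamma actin Actg1 (2.78). One cell on each side stood off: cardiomyocyte 4 had the highest cardiomyocyte level of Actb, Tpm3, Lasp1 and Myh9, and astroTIPeR 1 the lowest astroTIPeR level of Actb, Tpm3, Actn1 and Myh9. The mean over the list was 7.74 in cardiomyocyte 4, against 5.86 to 6.42 in the other cardiomyocytes, and 7.09 in astroTIPeR 1, against 8.38 to 8.97 in the others. The number of higher members was 9 without astroTIPeR 1, 8 without cardiomyocyte 4, 4 without cardiomyocyte 3, and 5 without each of the other 7 cells. It was 3 when probe sets of a gene were averaged and 5 when the 18S signal was in the model. Fibroblasts, at 8.16 to 9.96 on the list mean, were in the range of astroTIPeR cells or above it.

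**Figure D3:**
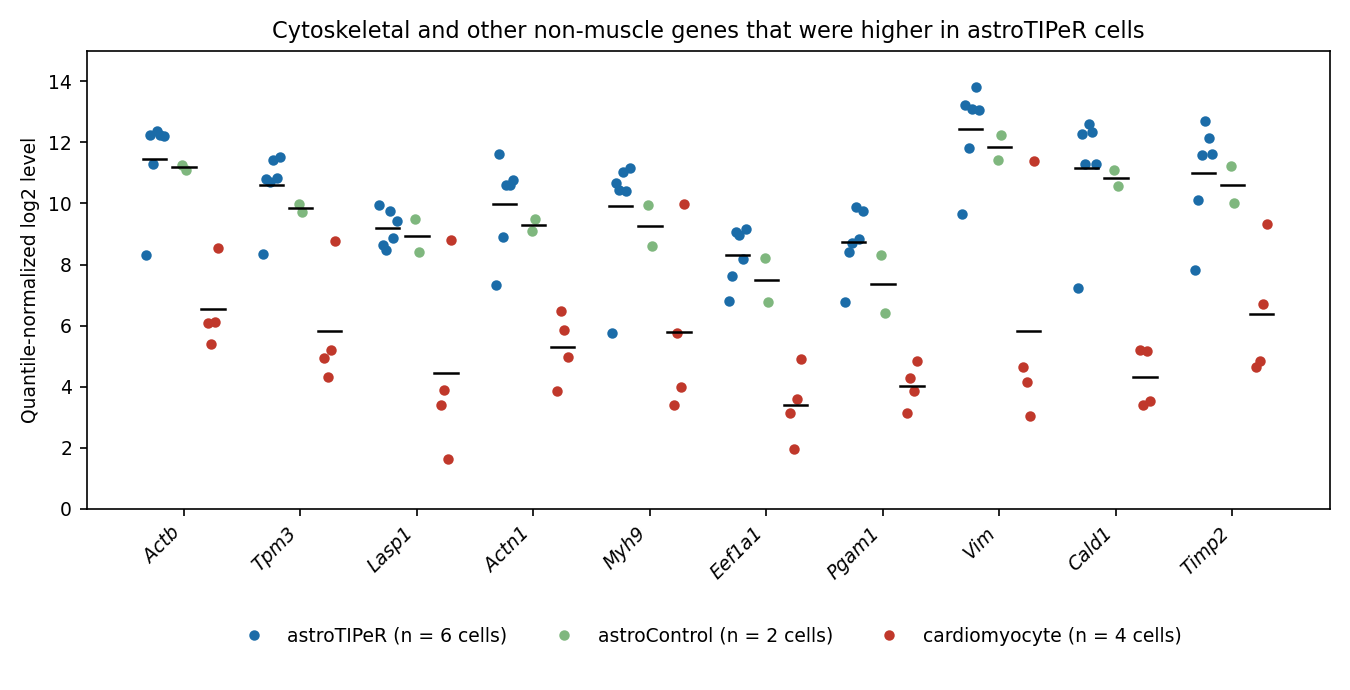
Quantile-normalized log2 level (y axis) of 5 cytoskeletal and 5 other genes that passed as higher in astroTIPeR cells, with 1 point per cell and a black line at each group mean. Cardiomyocyte 4 is the high red point for Actb, Tpm3, Lasp1, Myh9, Vim and Timp2, and astroTIPeR 1 the low blue point for Actb, Tpm3, Myh9, Cald1 and Timp2.

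Marker lists of other cell types showed few single genes past the test. None of 40 astrocyte genes passed, and the list mean ran from 6.99 to 7.57 in astroTIPeR cells and from 7.01 to 7.24 in cardiomyocytes. Apoe, the lipid carrier that astrocytes secrete, was nearest, at 6.19 ± 1.58 against 3.88 ± 0.98 (adjusted p = 0.0512). Of 18 genes of reactive astrocytes, Vim and Cp were higher, where 1.39% of all genes were. Vim, an intermediate filament protein of mesenchymal and glial cells, was at 4.65, 4.17, 3.05 and 11.38 in cardiomyocytes and between 9.66 and 13.82 (median 13.09) in astroTIPeR cells (difference 6.64, adjusted p = 0.000189). Only cardiomyocyte 4 reached the astroTIPeR range, and fibroblasts had 14.85 ± 0.46. Cp, the copper-carrying ceruloplasmin, was at 10.09 ± 1.40 and 5.89 ± 0.51 (difference 4.20, adjusted p = 0.0126), but 5 of its 8 probe sets had the opposite sign.

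Among 18 microglia and macrophage genes 1 was higher, where 1.39% of all genes were. Lyz2, lysozyme of macrophages, was at 5.66, 4.74, 6.83 and 6.49 in cardiomyocytes and spread from 6.34 to 12.46 (median 9.93) over the astroTIPeR cells, with 4.69 and 11.29 in the astroControl cells. The range over the astroTIPeR cells was wider than the difference of 3.96 (adjusted p = 0.0498), and the call held only without astroTIPeR 1 (adjusted p 0.0527 to 0.169 without each of the other 9 cells). The mean over that list ran from 7.01 to 8.63 in astroTIPeR cells and from 6.56 to 7.07 in cardiomyocytes, 15 of 18 differences were positive, and 13 of the 18 genes had an astroTIPeR mean above the median of all genes. Members with an astroTIPeR mean below that median included Aif1, Itgam, Ptprc and P2ry12 (4.98, 4.40, 3.50 and 3.998). Whether RNA of microglia or macrophages took part was not tested.

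In the remaining cell type lists 3 genes passed, a share near the 2.13% of all genes that did. Of 30 fibroblast and matrix genes, 21 had positive differences. Timp2, an inhibitor of matrix metalloproteases, was higher (10.996 ± 1.77 against 6.39 ± 2.17, adjusted p = 0.0303), held only without astroTIPeR 1, astroTIPeR 2 or cardiomyocyte 4 (adjusted p 0.0569 to 0.132 without each of the others). Postn, a matrix protein of heart and bone, was lower, at 2.72 to 4.15 (median 3.56) in astroTIPeR cells against 7.17, 8.74, 6.09 and 8.97 (difference -4.21, adjusted p = 0.0215). Its call ended without astroTIPeR 4, cardiomyocyte 2 or cardiomyocyte 4 (adjusted p 0.0518 to 0.092). The mean over 12 smooth muscle genes did not overlap (6.66 to 8.21 in astroTIPeR cells, 5.48 to 6.59 in cardiomyocytes), with 6 positive and 6 negative differences. Of these, Cald1, caldesmon, which binds actin and myosin, was higher: 5.21, 3.41, 5.18 and 3.54 in cardiomyocytes against 7.22 to 12.61 (median 11.79; difference 6.84, adjusted p = 4.73e-06). The mean over 20 neuron genes was 6.04 to 6.42 in astroTIPeR cells and 6.48 to 6.74 in cardiomyocytes, with 15 negative differences. None of 20 neuron, 16 oligodendrocyte, 14 endothelial or 21 skeletal muscle genes passed in this test, though Tnni2, the fast skeletal troponin, had 9.07 ± 1.16 against 6.30 ± 0.92 without overlap (adjusted p = 0.0736). With each array centred on its median, 6 astrocyte genes were higher, where 2234 of all genes were. With values as deposited 5 were lower, where 3537 of all genes were. The median difference of all genes was 0.33 and -0.80 in the same order, so these counts show no direction of the astrocyte list. Relative to all genes the median of that list was 0.32 under both scalings. It was -0.09 when the probe sets of a gene were averaged.

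**Figure D4:**
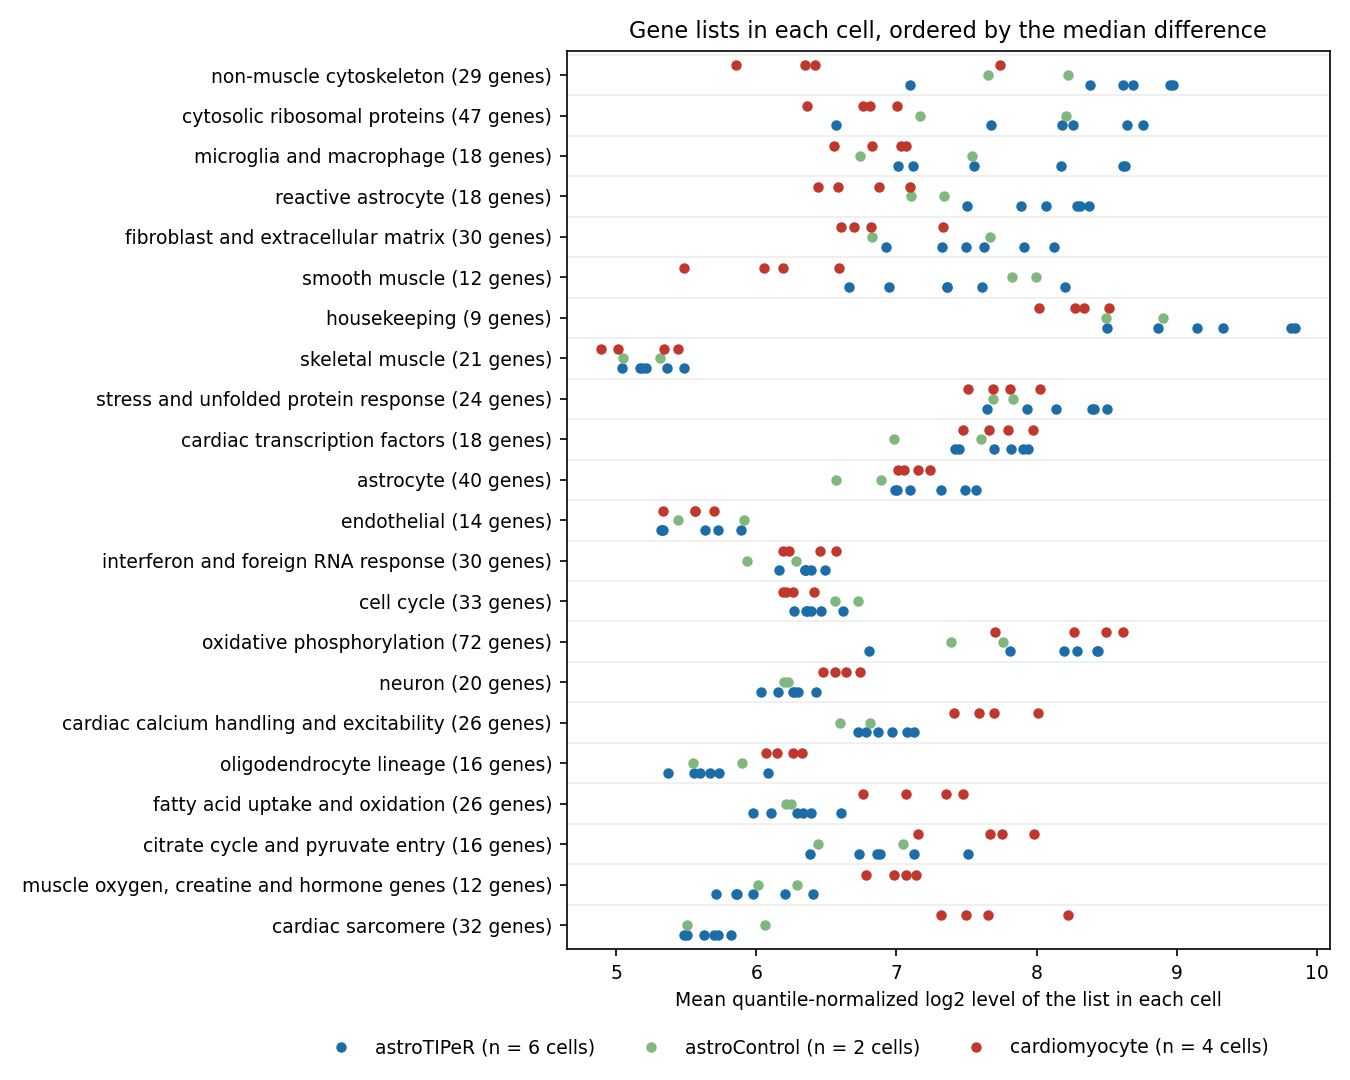
Mean quantile-normalized log2 level of each of 22 gene lists (x axis) in each cell, with 1 point per cell of 6 astroTIPeR, 2 astroControl and 4 cardiomyocyte cells, and lists ordered by the median difference between astroTIPeR cells and cardiomyocytes. The cardiac sarcomere list at the bottom separates cardiomyocytes (7.32 to 8.22) from all astroTIPeR and astroControl cells (5.49 to 6.06), and astroTIPeR 1 is the low blue point on the cytoskeleton and ribosomal lists.

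General lists of translation, stress and division were also measured, and 1.39% of all genes were higher. Ribosomal protein genes had a median difference of 1.39, and 41 of 47 were positive, but 1 passed: Rpl7, a protein of the large subunit (8.43 ± 1.01 against 5.63 ± 1.14, adjusted p = 0.0497). It held only without astroTIPeR 1 or cardiomyocyte 2 (adjusted p 0.0608 to 0.137 otherwise), and with each array centred on its median 19 ribosomal genes passed as higher. The ribosomal mean was 6.57 in astroTIPeR 1 and 7.68 to 8.76 in the other astroTIPeR cells, against 6.36 to 7.001 in cardiomyocytes. Of 24 stress genes, Hspa1a, an inducible heat shock chaperone, was higher: 7.08, 5.03, 7.51 and 7.69 in cardiomyocytes, 10.91 to 12.88 (median 11.71) in astroTIPeR cells and 10.54 and 12.44 in astroControl cells (difference 5.05, adjusted p = 0.00114). Of 30 interferon and foreign RNA response genes, Adar, which edits double-stranded RNA, was higher by 0.75 (13.50 ± 0.30 against 12.76 ± 0.26, adjusted p = 0.0131). The sign of the gene Adar turned with the mean of its 3 probe sets (-0.0952), and the call ended without cardiomyocyte 2 or cardiomyocyte 4 (adjusted p 0.0522 to 0.0647). Of 33 cell cycle genes, the replication helicase subunit Mcm5 was higher by 4.75 (9.06 ± 0.66 against 4.31 ± 0.53, adjusted p = 0.00181), and of 9 housekeeping genes Eef1a1.

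The largest rises among genes that passed without overlap were headed by Ang, the ribonuclease angiogenin. It was at 3.64, 2.05, 3.51 and 3.78 in cardiomyocytes and between 11.98 and 13.10 (median 12.49) in astroTIPeR cells (difference 9.26, interval 6.86 to 11.66, adjusted p = 3.14e-05). Rasal3, a Ras GTPase activator of blood cells, differed by 8.51, Pglyrp2, an amidase that cuts bacterial peptidoglycan, by 8.50, and Lipf, gastric lipase, by 8.07. The next were Bex1 (7.57), the inflammasome adaptor Pycard (7.502), Arhgap18 (7.45), Tlcd4 (7.01), Gtf2ird2 (6.78), the neuronal adhesion protein Cntn2 (6.48) and the DNA repair protein Ercc1 (6.46). These 11 genes, with Cald1 the 12 largest such rises, had astroControl means of 10.42 to 12.64. Their differences between astroTIPeR and astroControl were between -0.55 and 0.34, with intervals that reached from -3.59 to 3.33 with 2 control cells. FibroControl means of Ang, Rasal3, Pglyrp2, Lipf and Arhgap18 were 11.13, 10.80, 12.65, 11.63 and 11.64, against 3.58, 4.44, 3.41, 3.75 and 4.48 in fibroblasts that had not been transfected. Those of Bex1, Pycard, Tlcd4, Gtf2ird2, Cntn2 and Ercc1 were less high, at 7.34, 7.69, 6.81, 9.28, 9.12 and 8.70. The same fibroblasts had 2.94, 2.65, 3.02, 2.75, 5.20 and 5.69 for them. FibroTIPeR means were 7.80 ± 4.06, 7.93 ± 4.25, 8.10 ± 4.09 and 8.50 ± 3.56 (SD, n = 5) for Ang, Rasal3, Pglyrp2 and Lipf, so these cells differed widely from each other. Fibroblasts and cardiomyocytes, the untransfected groups, had the lowest means of these genes. The genes were chosen as higher in astroTIPeR cells than in cardiomyocytes, which fixed the low cardiomyocyte means. Where a gene had several probe sets, the brightest over all cells was taken, which favours one that is high in some of the groups. Pglyrp2, Lipf, Bex1 and Gtf2ird2 had 1 probe set each, so that choice did not touch them. Whether transfection had a part was not tested. Probe sets of a gene differed in sign: 2 of 3 had the opposite sign for Ang, 2 of 4 for Tlcd4, 2 of 4 for Cntn2, 1 of 4 for Ercc1, and 2 of 3 for Pycard, 1 of which passed as lower. Rasal3 and Arhgap18 had no probe set of opposite sign.

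Some of the largest falls were likewise not limited to heart genes. Carnmt1, a carnosine methyltransferase, was at 9.36, 11.39, 10.21 and 14.15 in cardiomyocytes and between 4.53 and 7.98 (median 5.50) in astroTIPeR cells (difference -5.43, adjusted p = 0.00251). Naca, a chaperone of nascent chains at the ribosome, differed by -4.74, the co-chaperone Dnajc21 by -4.41 and the initiation factor subunit Eif2b4 by -4.21. Fibroblast means of these 4 were 13.30, 11.92, 12.46 and 11.92, above the cardiomyocytes, while fibroControl means were 5.86, 4.44, 5.92 and 6.92. The 8 heart genes among the 12 largest falls that passed without overlap had fibroblast means of 3.90 to 7.04 instead. Hadhb, a subunit of the fatty acid oxidation enzyme, had a difference of -4.78 without overlap but did not pass (adjusted p = 0.0736).

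FibroControl against fibroblast shares no cell with astroTIPeR or cardiomyocyte, but was taken from the same fit. It had 131 genes higher (0.72%) and 152 lower (0.835%). The 18S level was 11.62 ± 0.43 in fibroControl and 7.45 ± 0.53 in fibroblast cells, the B2 level 11.74 ± 0.74 and 8.34 ± 2.35, and their part in these counts was not tested. Of the 253 genes higher in astroTIPeR cells, 31 were also higher in fibroControl, which is 12.3% of the former and 23.7% of the latter. Of the 134 lower genes 13 were also lower in fibroControl, 9.7% and 8.55%, and 0 genes of either set passed in opposite directions. These overlaps are not between independent tests. Both comparisons used the same residual variance for each gene and arrays normalized together. They also used the same probe set, the brightest over all cells. The part of this sharing in the overlaps was not tested. The median level of the 253 higher genes, chosen on astroTIPeR against cardiomyocyte, was 8.88 in astroTIPeR, 8.64 in astroControl, 6.96 in fibroControl, 5.16 in fibroblast and 4.85 in cardiomyocyte cells.

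**Figure D5:**
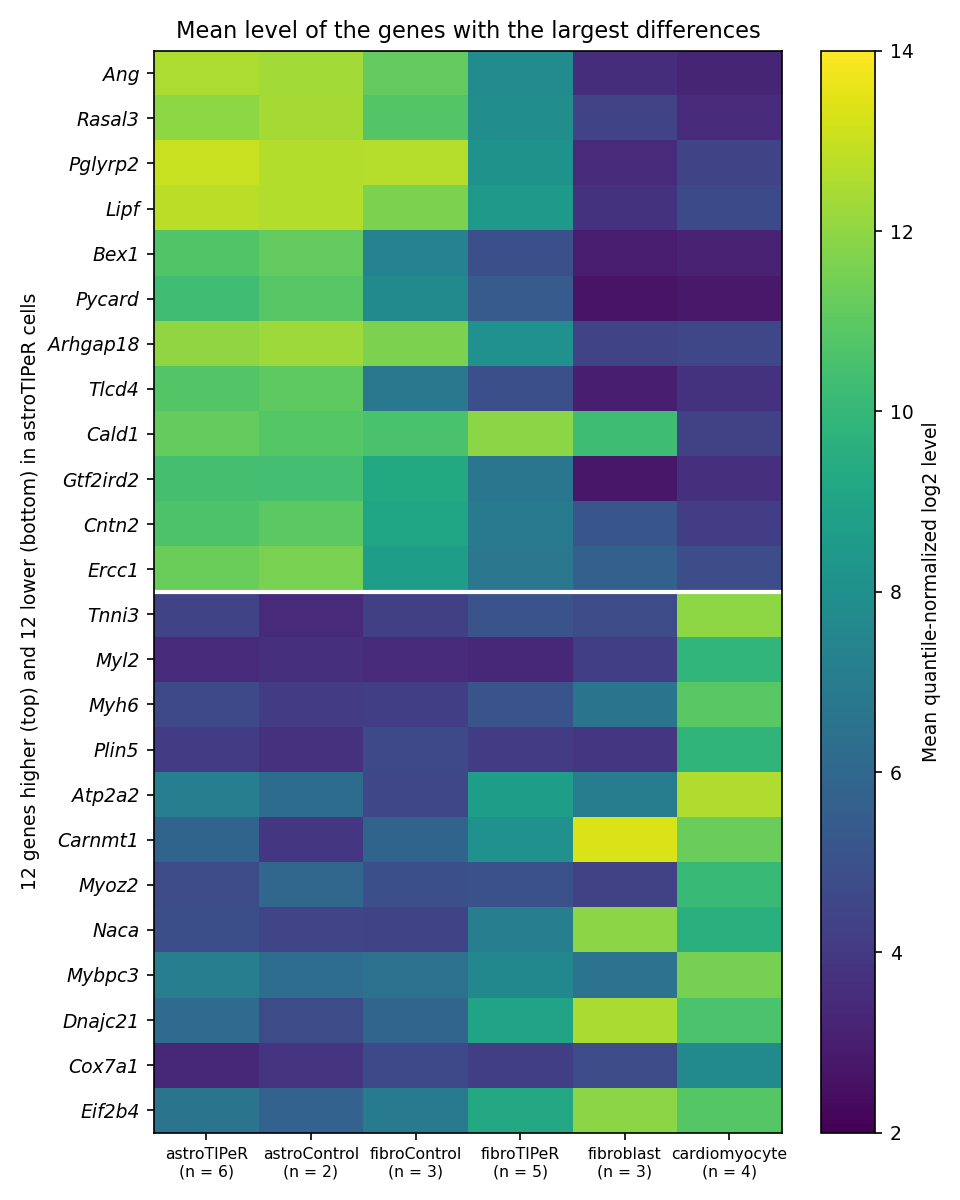
Mean quantile-normalized log2 level (colour scale) of the 12 genes with the largest rises and the 12 with the largest falls among genes that passed without overlap (y axis) in each of the 6 groups (x axis, n cells). The top genes are bright in astroTIPeR and astroControl cells, and Ang, Rasal3, Pglyrp2, Lipf, Arhgap18 and Cald1 are brightest among them in fibroControl cells. Cald1 is bright in fibroblasts and fibroTIPeR cells too. Carnmt1, Naca, Dnajc21 and Eif2b4 are bright in fibroblasts as well as in cardiomyocytes.

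The transferred RNA itself was addressed by the mock-transfected cells, on arrays of the same range. Against astroControl, 9 of the 18193 genes (0.0495%) passed in astroTIPeR cells, and none of the 23 fixed markers did (smallest adjusted p = 0.554). For Tnni3 the difference was 1.02 (interval -0.79 to 2.83), for Myl2 -0.14 (-1.64 to 1.36) and for Atp2a2 0.89 (-1.65 to 3.42). With 2 control cells, changes within these intervals cannot be told from no change. The correlation across genes of each cell with the mean of the 4 cardiomyocytes was 0.862 ± 0.028 in astroTIPeR cells (0.816 to 0.891) and 0.797 ± 0.047 in the 2 astroControl cells (0.764 and 0.8294). One astroTIPeR cell, the lowest, lay below the higher astroControl cell, and the difference of 0.0652 had an exact two-sided permutation p of 0.143, where 28 splits allow no p under 0.0714. It was 0.0323 without astroControl 2 and 0.0981 without astroControl 1. Untransfected fibroblasts, on arrays of the other range, had 0.864 ± 0.079 (0.773 to 0.913, n = 3) on the same measure. Genes are not independent replicates in such a correlation.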

How the data were processed

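The deposited table holds log2 expression values by the authors for 45101 probe sets in 23 cells; the log2 scale was judged from the values, and how the array signals were background corrected, summarized and normalized is, for these arrays, not given in the sources used here. Control probe sets (64), probe sets with several symbols (932) and those not listed in the platform annotation (9160) were left out. Of the other 34945, 34741 matched RefSeq by gene ID and kept their symbols. All 23 columns were quantile normalized, and the probe set with the highest mean over all samples stood for a gene (9010 genes had several). The test was limma's (version 3.58.1, R 4.3.3; lmFit with 6 group means over 23 cells, eBayes with a trend, two-sided, Benjamini-Hochberg over 18193 genes, threshold 0.05), and the script was tested on simulated data. The named genes were up to 12 per direction with the largest difference past the threshold and without overlap, up to 5 per list past the threshold or the 2 with the smallest p, isoform pair members that passed, and fixed markers. The members, lists and pairs were chosen with earlier results of these data known. The number of arrays limits the precision.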

Additional observations from a re-analysis of the deposited data

Results flagged for a closer look

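In 150 groups of 4 or 6 cells, 9 had a lowest or highest cell whose gap to the others passed Dixon's 95% limit. That share is near the 1 in 20 that chance gives, so the cells below may stand apart by chance. In astroTIPeR 1, 4 genes were far below the other 5 astroTIPeR cells: Cald1 at 7.22 (others 11.29 to 12.61), Actb at 8.31 (11.3 to 12.36), Tpm3 at 8.36 (10.69 to 11.52) and Myh9 at 5.77 (10.4 to 11.16). The mean over the non-muscle cytoskeleton list was 7.095 in that cell (others 8.379 to 8.971). Its 18S level (7.63) and B2 level (6.41) were also the lowest of the 6, and their part in these values was not tested. Cardiomyocyte 2 stood apart for Ang at 2.05 (others 3.51 to 3.78), Bex1 at 2.05 (3.40 to 3.61) and Pglyrp2 at 5.59 (4.08 to 4.12), all below the median level of all genes. Cardiomyocyte 1 was low for Ryr2, at 6.44 (others 8.02 to 8.26).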

How the results depend on the processing

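The 387 genes that passed (253 higher, 134 lower, 65.4% higher) became 3998 (461, 3537, 11.5%) with values as deposited, 2615 (2234, 381, 85.4%) with each array centred, 1781 (914, 867, 51.3%) with array weights, 885 (528, 357) with the 10 arrays normalized and fitted alone, 888 (529, 359) with the 2 groups fitted alone, 84 (68, 16, 81%) with a minimum change of 2-fold, and 664 (423, 241) with astrocytes and cardiomyocytes alone in the fit, chosen after seeing the data. With every probe set tested, 595 genes passed, 226 of them lower. Lower genes numbered 76 among genes above the median level and 74 with the 18S covariate. In these settings, listed genes that passed (39) became 139, 118, 101, 63, 64, 18 and, with every probe set, 59. Isoform members (9) became 15, 14 and, at 2-fold, 5. Sarcomere genes (11) became 20 as deposited, 6 above the median level and 7 at 2-fold. Cytoskeletal genes (8) became 13 when centred, 3 with the mean of all probe sets, 3 at 2-fold, 5 with the 18S covariate and 5 with the replicate block. Leaving out 1 cell gave 217 to 392 genes, 142 to 261 higher, 75 to 131 lower, 28 to 45 listed, 6 to 9 isoform members, 9 to 11 sarcomere and 4 to 9 cytoskeletal genes. The similarity difference was 0.0323 to 0.0981. The replicate block gave 330 genes (225 higher, 105 lower), and the 4 same-numbered pairs had correlations of -0.0886 to 0.111. So few pairs cannot show whether same-numbered cells shared a culture, which the labels do not name. The gene Adar reversed with the mean of all probe sets (-0.0952). Of 49 named genes that passed, 36 kept their call without each cell and 48 under both other scalings (not Atp5e). The causes were not tested, and no detection calls were used, so signal over background limits the low genes.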

Other observations

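The genes that follow are outside the lists and were chosen after their values were seen. Among lower genes were the ketone body enzyme Bdh1 (-4.13, adjusted p = 0.0163), the coenzyme Q kinase Coq8a (-3.98, 0.00936), sarcalumenin Srl of the sarcoplasmic reticulum (-3.11, 0.00776), the mitochondrial pore protein Ppif (-3.81, 0.0399) and the homeobox factor Prox1 (-3.22, 0.0241). Among higher genes were the ferritin chain Fth1 (5.78, 0.00017), the GTPase Rac1 (5.13, 0.00117), the cytosolic isocitrate dehydrogenase Idh1 (4.99, 0.000763), the sulfatase Sulf1 (4.74, 0.00148), the galectin Lgals1 (4.67, 0.00897), the calcium-binding S100a6 (3.43, 0.0343) and the membrane metalloprotease Mmp14 (3.60, 0.0207). All p-values are limma's, adjusted over all genes. Lyz1, a second lysozyme gene whose probe sets may share signal with Lyz2, was higher by 5.84 (0.0013).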
